A study of Mus musculus with 8 samples.

Results

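Genes that make, move or oxidize the acylceramides of the skin barrier were followed in mouse skin treated with Alpinetin (AP), a plant flavonoid, or with vehicle (VC). The 9 genes followed, out of 18770 genes listed, were Elovl4, Cers3, Pnpla1, Abhd5, Ugcg, Abca12, Alox12b, Aloxe3 and Sdr9c7. Alox12b was chosen by its value in these libraries, where it had one of the largest increases in AP over VC, and the others were picked around it for their function with earlier results of the same comparison known. Their AP and VC values are therefore given as a description, without a test. All mice were wildtype C57BL/6J (C57BL/6 in the sample labels) males aged 7 to 8 weeks, with no other allele or treatment named. The 4 VC mice received 65% ethanol, and the 4 AP mice received Alpinetin at 3 mg/ml in 65% ethanol. In both groups 20 µl was applied topically once a day from 24 h after depilation. Skin was taken at D4 after depilation, and RNA came from dermis with its hair follicles once the epidermis between the follicles had been removed.

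Acylceramides are the lipids that seal the outer layer of the epidermis. A fatty acid of very great length is elongated by ELOVL4 and joined to a sphingoid base by CERS3, and PNPLA1, helped by ABHD5, then places linoleate on the far end of the chain. The product is glucosylated by UGCG and loaded by ABCA12 into the lamellar granules of differentiating keratinocytes, and after its release ALOX12B, ALOXE3 and SDR9C7 oxidize the linoleate in turn, a step needed to bind the lipid to the cornified envelope. Loss of most of these genes causes inherited ichthyosis, a scaling disease with a leaking barrier.

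The values are normalized counts, that is reads per gene divided by a size factor for each library. Between 6454563 and 7264151 reads per VC library and between 8507783 and 11190113 reads per AP library fell on the listed genes. The 13 mitochondrially encoded genes took 48.4% ± 5.81 of these reads in VC and 8.66% ± 2.63 in AP (SD, n = 4 each, p = 0.0286 by exact permutation over the 8 libraries, both tails, which is the lowest value 4 against 4 can give). In these libraries 1 read was worth 1.37 to 1.88 normalized counts in the VC libraries and 0.498 to 0.725 in the AP libraries, so that low values were measured more coarsely in VC. Each log2 fold change compares AP with VC on the scale log2(normalized counts + 1), on which the change of a low gene depends on the constant added. Library numbers only name the columns and do not pair a VC mouse with an AP mouse.

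Although the epidermis between the follicles had been removed, markers of suprabasal epidermis were present in all 8 libraries. The 20 markers summed to 7149, 14764, 10306 and 6930 normalized counts over VC.1–VC.4 and to 48489, 45402, 134662 and 185096 over AP.1–AP.4. Krt10 was the most abundant of them, and only Krt2 was at 0 in a library (VC.4). In this list 17 of 20 genes were higher in AP at a limma adjusted p under 0.05 and none was lower, with a median log2 fold change of 2.90. Krt1, Krt10, Ivl, Flg and Lor had log2 fold changes of 3.46, 3.85, 2.89, 3.22 and 3.001 (limma adjusted p = 0.00843, 0.00367, 0.0113, 0.0130 and 0.0386). No marker of the list was lower at an unadjusted p under 0.05, with edgeR or with DESeq2 either. The summed level of these markers moved with the values of several barrier lipid genes, and its part in them was not tested. In a bulk sample, fewer cells of a type and less RNA per cell cannot be told apart.

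All 9 genes passed the filter (3 or more normalized counts in 4 or more libraries), and all 9 had log2 fold changes above 0. Their median was 2.14, against 0.06 for the 15964 genes tested, whose quartiles were -0.36 and 0.54 and of which 53.5% lay above 0. Of all genes tested, limma called 1011 higher and 639 lower, and this split was 890 and 892 with upper-quartile factors and 8662 and 70 with total reads, which moved the median of all genes to 0.90. With total reads outside the 13 mitochondrially encoded genes it was 957 and 540, with a median of 0.10. By limma 6 of the 9 had an adjusted p under 0.05 and a higher value in AP, where 6.33% of all genes tested did, and 0 of 9 were called lower, where 4.0% did. With edgeR on the recovered reads 6 of 9 were called higher (6.71% of all genes), and with DESeq2 5 of 9 were (9.46%). The gene that DESeq2 did not call, of the 6 that limma called, was Alox12b. Every AP library exceeded every VC library in 5 of the 9 genes, where 10.3% of all genes tested did so, and every AP library was below every VC library in none, where 8.91% did so. Without AP.3 or without AP.4, limma called only Pnpla1 and Abca12, and without VC.4 it called 3 genes. Nothing is read from these counts, because the same comparison chose the genes. The median of the 9 was between 1.73 and 2.46 when each library was left out in turn.

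**Figure D1:**
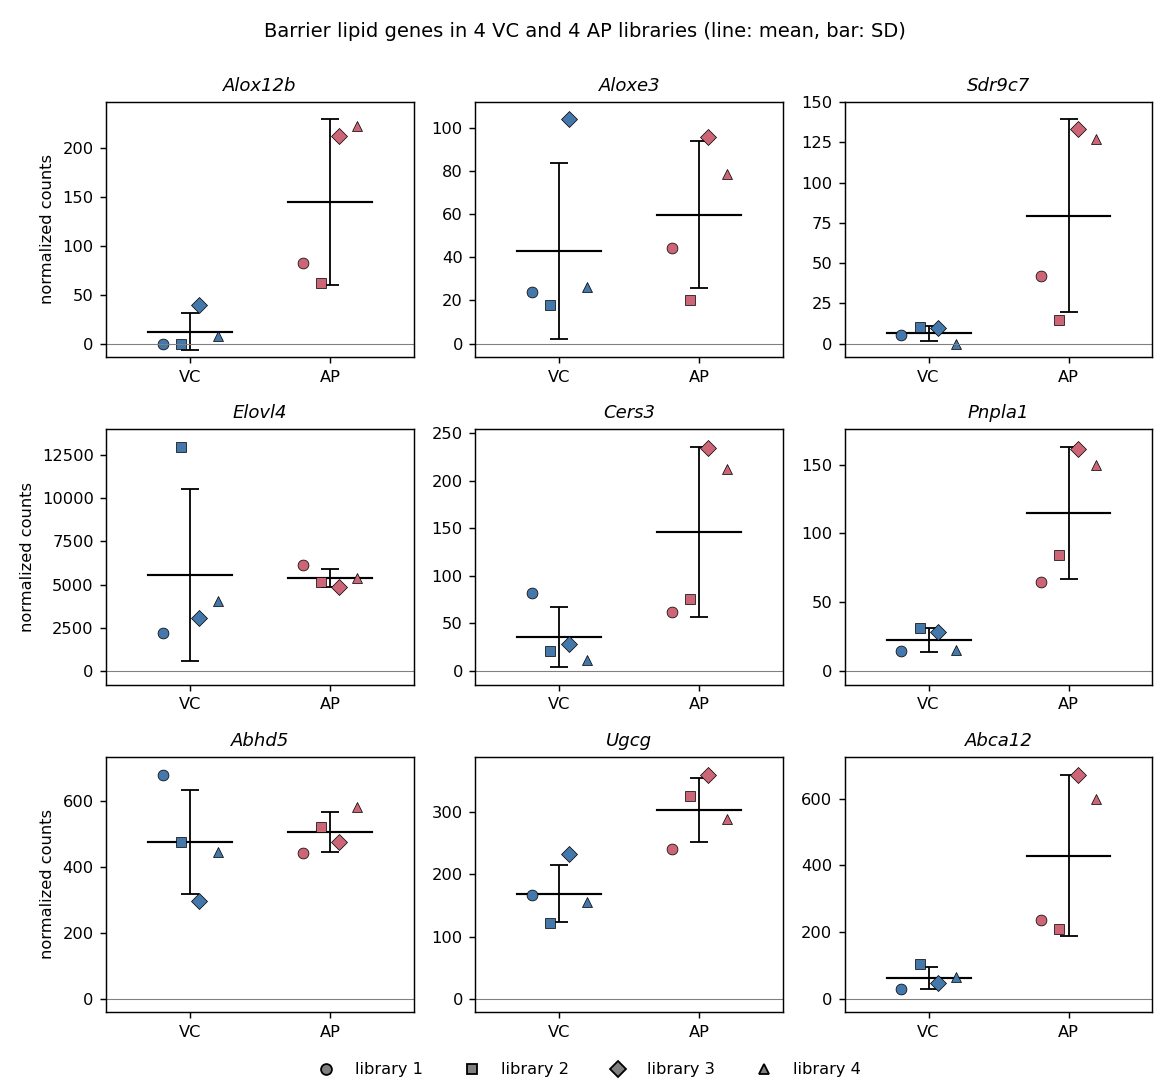
Normalized counts of the 9 barrier lipid genes in each VC and AP library, on linear axes of their own. Points are libraries, the marker shape gives the column number, horizontal lines are group means and vertical bars are SD (n = 4); the groups do not overlap for Alox12b, Sdr9c7, Pnpla1, Ugcg and Abca12, and Elovl4 has its highest value, 12936, in VC.2.

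Elovl4 encodes the elongase that builds fatty acids of very great chain length. It had 2185, 12936, 3065 and 4029 normalized counts over VC.1–VC.4 and 6118, 5169.7, 4829 and 5398 over AP.1–AP.4. VC.2 was the highest of all 8 libraries and the other 3 VC libraries were the lowest 3, so the AP range lay inside the VC range. The AP values spread over 1.27 times from lowest to highest and the VC values over 5.92 times. The log2 fold change was 0.31 (SE 0.43). It was 0.84 without VC.2 and 1.18 with total reads, but -0.02 without VC.1, -0.07 with edgeR and -0.05 with DESeq2, so its direction depended on the library left out and on the method.

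Cers3 encodes the ceramide synthase that accepts these long acyl chains. It had 81.9, 20.7, 28.7 and 11.3 normalized counts over VC.1–VC.4 and 62.4, 76.0, 234 and 212 over AP.1–AP.4. VC.1 lay above AP.1 and AP.2, and the other 3 VC libraries lay below all AP libraries. The mean was 35.6 ± 31.6 in VC and 146 ± 89.3 in AP (SD, n = 4 each), with a log2 fold change of 2.14 (SE 0.60). It ran from 1.73 without VC.4 to 2.65 without VC.1.

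Pnpla1 encodes the transacylase that moves linoleate from triglyceride onto the ceramide. It had 14.6, 31.0, 28.7 and 15.0 normalized counts over VC.1–VC.4 and 64.6, 84.1, 161 and 149.5 over AP.1–AP.4. Every AP library was above every VC library, and AP.3 and AP.4 were the highest. The mean was 22.3 ± 8.76 in VC and 115 ± 47.8 in AP (SD, n = 4 each), and the log2 fold change of 2.29 (SE 0.40) stayed between 2.10 and 2.53 with any 1 library left out. Pnpla1os, an antisense RNA on the opposite strand, shares 644 exonic bases with Pnpla1, and since the strand of the counting is not given in the sources used here, reads in that shared stretch cannot be assigned to either gene here. Pnpla1os itself had 0, 4.43, 0 and 1.88 normalized counts in VC and 9.43, 12.4, 32.9 and 30.0 in AP.

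Abhd5 encodes the coactivator of PNPLA1, which also serves the triglyceride lipase PNPLA2. It had 679, 476, 296 and 444 normalized counts over VC.1–VC.4 and 442, 519, 475 and 581.5 over AP.1–AP.4. The highest and the lowest of the 8 libraries were both VC libraries, so the AP range lay inside the VC range. The log2 fold change was 0.14 (SE 0.23), and it was -0.06 without VC.3, 0.34 without VC.1 and 1.01 with total reads. Abhd5 shares 950 exonic bases with the antisense RNA A730085K08Rik, which had a log2 fold change of -0.27 (SE 0.23).

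Ugcg encodes the glucosyltransferase that makes glucosylceramide. It had 167, 121, 232 and 156 normalized counts over VC.1–VC.4 and 240.1, 326, 360.2 and 289.7 over AP.1–AP.4. The groups did not overlap, although VC.3 and AP.1 were close to each other. The mean was 169 ± 46.4 in VC and 304 ± 51.4 in AP (SD, n = 4 each), with a log2 fold change of 0.87 (SE 0.22). With a library left out it ran from 0.72 to 1.03, and it was 1.73 with total reads.

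Abca12 encodes the lipid transporter of the lamellar granules. It had 29.1, 105, 46.4 and 65.6 normalized counts over VC.1–VC.4 and 235, 208, 672 and 600.1 over AP.1–AP.4. Every AP library was above every VC library, and AP.3 and AP.4 stood above the other AP libraries. The mean was 61.5 ± 32.6 in VC and 429 ± 241 in AP (SD, n = 4 each), with a log2 fold change of 2.74 (SE 0.46) that stayed between 2.44 and 3.04 with any 1 library left out.

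Alox12b encodes the lipoxygenase that starts the oxidation of the linoleate. It had 0, 0, 39.6 and 7.5 normalized counts over VC.1–VC.4 and 82.0, 61.5, 212 and 222 over AP.1–AP.4. No read was counted in VC.1 and VC.2, where a floor of 3 reads corresponds to 5.46 and 4.43 normalized counts, and 29 of the reads in VC came from VC.3. The groups did not overlap, with AP.3 and AP.4 the highest. The mean was 11.8 ± 18.9 in VC and 144 ± 84.4 in AP (SD, n = 4 each), a ratio of means of 12.3. The log2 fold change of 4.86 (SE 1.06) depended on the pseudocount, the method and the library left out. It was 3.58 with a pseudocount of 5, 5.38 with 0.5, 3.498 with edgeR, 3.61 with DESeq2, which did not call the gene, and 5.94 without VC.3.

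Aloxe3 encodes the lipoxygenase that acts next on the product of ALOX12B. It had 23.7, 17.7, 104 and 26.3 normalized counts over VC.1–VC.4 and 44.2, 19.95, 95.7 and 78.7 over AP.1–AP.4. VC.3 was the highest of the 8 libraries and AP.2 was among the lowest, so the groups overlapped widely. The log2 fold change was 0.62 (SE 0.60), and it was 1.16 without VC.3, 0.32 without AP.3 and 1.46 with total reads. In VC the mean of Aloxe3, 42.9 ± 40.8, was above that of Alox12b in normalized counts, and in AP its mean of 59.6 ± 34.0 (SD, n = 4 each) was below.

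Sdr9c7 encodes the dehydrogenase that acts on the lipoxygenase product. It had 5.46, 10.3, 9.56 and 0 normalized counts over VC.1–VC.4 and 42.1, 14.6, 133 and 127 over AP.1–AP.4. The VC values rest on 3, 7, 7 and 0 reads, and AP.2, with 27 reads, lay just above the VC libraries. The groups did not overlap, with means of 6.34 ± 4.74 in VC and 79.2 ± 59.9 in AP (SD, n = 4 each) and a log2 fold change of 3.47 (SE 0.88). Without VC.4, the library at 0, it was 2.67.

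To compare the genes with each other, reads were divided by the length of the longest annotated transcript and scaled to the same total of such units per library without the mitochondrially encoded genes. On this length-scaled level Elovl4 stood far above the others, with 672 ± 617 in VC and 734 ± 69.3 in AP (SD, n = 4 each). Abhd5 came next, with 52.0 ± 11.5 in VC and 65.4 ± 5.96 in AP, followed by Ugcg with 15.2 ± 5.42 and 31.3 ± 6.77. The other 6 genes lay between 0.808 (Sdr9c7) and 3.68 (Cers3) in VC, in the order Cers3, Aloxe3, Abca12, Alox12b, Pnpla1 and Sdr9c7. In that order the means of neighbours differed by less than the larger of their SDs, apart from Pnpla1 (1.82 ± 0.849) and Sdr9c7 (0.808 ± 0.645). In AP their order on the length-scaled level was Alox12b with 24.1 ± 13.8, Abca12 with 19.2 ± 10.9, Cers3 with 18.3 ± 11.3, Sdr9c7 with 11.2 ± 8.52, Pnpla1 with 10.5 ± 4.39 and Aloxe3 with 5.20 ± 3.05. Here too neighbours differed by less than the larger of their SDs, apart from Pnpla1 and Aloxe3. Alox12b thus went from a length-scaled mean of 1.90 ± 3.11 in VC, below that of Aloxe3 (3.44 ± 3.62), to a mean above it in AP.

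The libraries of a group were not alike. AP.3 and AP.4 lay above both AP.1 and AP.2 in 6 of the 9 genes (Alox12b, Aloxe3, Sdr9c7, Cers3, Pnpla1 and Abca12), in 19 of the 20 suprabasal markers and in 24.6% of all genes tested. The mean of AP.3 and AP.4 was 4.60 times that of AP.1 and AP.2 for Sdr9c7, 3.22 for Cers3, 3.03 for Alox12b, 2.87 for Abca12, 2.72 for Aloxe3 and 2.09 for Pnpla1. For Ugcg, Abhd5 and Elovl4 these ratios were 1.15, 1.10 and 0.906.

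The suprabasal markers and the barrier lipid genes were then set side by side on the log2(normalized counts + 1) scale. Abca12 lay 1.34 ± 0.70 below the mean of the 20 suprabasal markers in VC and 1.46 ± 0.27 below it in AP (SD, n = 4 each), so the distance moved by -0.12. For Pnpla1 and Cers3 the distance moved by -0.57 and -0.72 and for Sdr9c7 by 0.61, each less than the larger of its SDs between libraries. Alox12b moved up by 2.003 relative to the markers, from -5.05 ± 2.67 to -3.05 ± 0.17, also less than the larger of its SDs. Its VC distances lay between -7.61 and -2.05, and those of VC.1 (-6.95) and VC.2 (-7.61) come from libraries without an Alox12b read. In VC.3 the distance of -2.05 was above those of all AP libraries (-3.21 to -2.87). Ugcg, Aloxe3, Elovl4 and Abhd5 moved by -1.99, -2.24, -2.55 and -2.72 relative to the suprabasal markers. These distances were not tested.

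Elovl4 was also set beside the sebaceous gland markers. The 12 markers summed to 15340.2, 49639.7, 16370.4 and 20539 normalized counts over VC.1–VC.4 and to 27919, 30442, 16517 and 21570.2 over AP.1–AP.4, with Scd1 the most abundant and only Mc5r at 0 in a library (VC.1). All 12 were highest among the VC libraries in VC.2, as was Elovl4, where 22.0% of all genes tested were. Elovl4 lay 3.63 ± 0.17 above their mean on the log2 scale in VC and 4.01 ± 0.33 above it in AP (SD, n = 4 each), a move of 0.38 that exceeds either SD. None of the 12 markers was called in either direction by limma, edgeR or DESeq2, and none had an unadjusted limma p under 0.05. Their median log2 fold change was -0.20, and it was 0.11 without VC.2 and 0.66 when libraries were scaled by total reads, where limma called 1 marker higher. The part of these cells in the Elovl4 values was not tested.

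**Figure D2:**
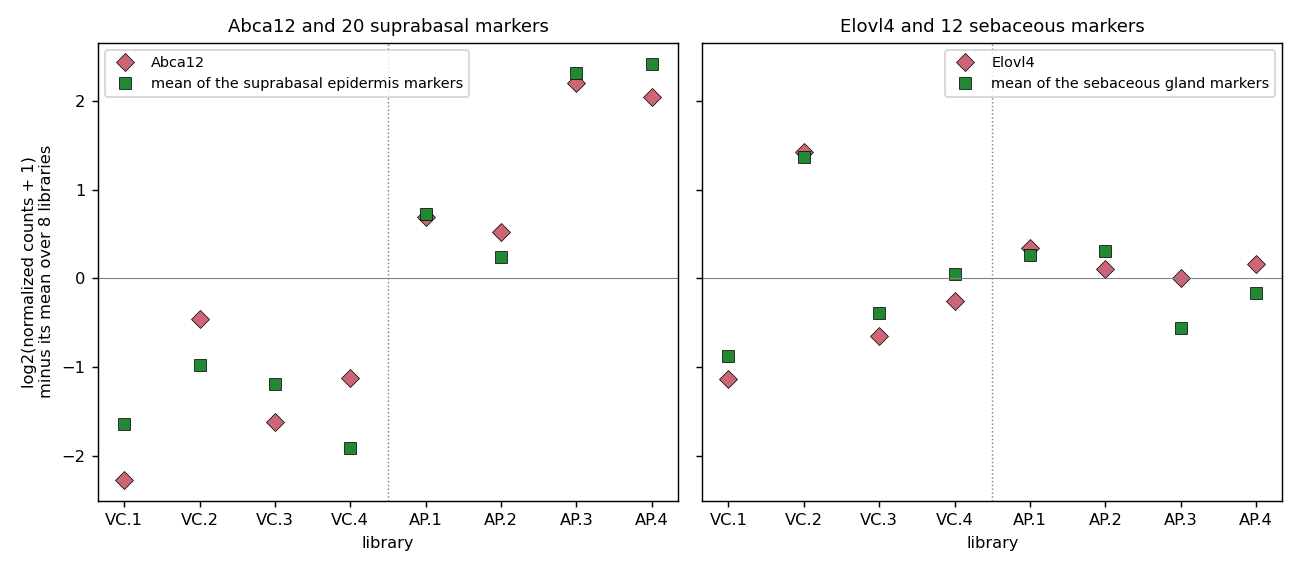
Log2(normalized counts + 1) of Abca12 with the mean of 20 suprabasal markers, and of Elovl4 with the mean of 12 sebaceous markers, in each of the 8 libraries, each series with its own mean over the 8 libraries subtracted. Abca12 and the suprabasal markers are above 0 in the 4 AP libraries and below 0 in the 4 VC libraries, and Elovl4 and the sebaceous markers are highest in VC.2.

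Other cells of the sample were read from the same kind of lists. Of 8 markers of basal keratinocytes (most abundant Krt14) 4 were called higher, with a median log2 fold change of 1.07, and of 7 markers of the upper hair follicle (Krt17) 4 were, with 1.13. Of 8 inner root sheath markers (Krt71, with Krt72 at 0 in VC.1 and VC.4) 2 were called higher, with a median of 1.32 that was 0.865 without VC.4. Scaled by total reads, 8 basal, 6 upper follicle and 5 inner root sheath markers were called higher, with medians of 1.94, 1.99 and 2.185. The basal markers summed to 25502, 80489.6, 49017 and 23083 normalized counts over VC.1–VC.4 and to 53441, 55611, 99917 and 144305 over AP.1–AP.4. The upper follicle markers summed to 6896 to 14558 in VC and 13020.2 to 20099 in AP, and the inner root sheath markers to 1860.0 to 7119.8 and 4277 to 19373. Of 10 adipocyte markers (Cfd), 8 fibroblast markers (Col1a1) and 8 leukocyte markers (Lyz2) limma called none in either direction, with medians of 0.36, 0.28 and -0.40. With total reads these medians were 1.23, 1.15 and 0.46, with 6, 7 and 3 markers called higher, and with a library left out they ran from 0.12 to 0.69, 0.08 to 0.56 and -0.585 to -0.17. At an unadjusted limma p under 0.05, 2, 1 and 1 of them were higher and 0, 1 and 2 lower, while edgeR called none of these and DESeq2 called 1 fibroblast and 1 leukocyte marker lower. Of 8 skeletal muscle markers (Acta1) 1, Tnnc2, was called lower (log2 fold change -2.05, limma adjusted p = 0.0497), with a median of -1.80 for the list and none called by edgeR or DESeq2. This median ran from -2.50 without AP.1 to -1.35 without AP.3 and was -0.93 with total reads. Limma called no muscle marker with TMM factors or with total reads, of all genes or outside mitochondrial genes. At an unadjusted limma p under 0.05, 7 of the 8 muscle markers were lower and 0 higher. The adipocyte markers summed to 16827 to 46943 normalized counts in VC and 17487 to 47274 in AP, the fibroblast markers to 81981 to 223757 and 98434 to 255099, the leukocyte markers to 4858 to 15047 and 3703 to 6445, and the muscle markers to 34795 to 67507 and 5049 to 57795. The highest of these AP sums of muscle markers was in AP.1, and the other 3 AP libraries reached 11380.2 at most. None of these lists had another gene at 0 in a library. The part of these cells in the barrier lipid values was not tested.

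The 9 genes belong to a longer pathway. By role, 83 other genes of it or of related lipid steps were listed, called pathway genes here, and 80 of them were tested. The lists are broad, so their counts do not describe the acylceramide route alone. Of the 80, 15 rose and 3 fell at a limma adjusted p under 0.05, where 6.33% and 4.0% of all genes tested did. The 80 had a median log2 fold change of 0.31, with 58 of 80 above 0 (53.5% of all genes), and this median was 0.54 without VC.2 and 1.18 with total reads. The groups did not overlap in 18 genes with AP above VC and in 3 with AP below, where 10.3% and 8.91% of all genes did not. Without AP.3 limma called none higher, although 24 had an unadjusted p under 0.05, and without AP.4 and AP.2 it called 3 and 5. With DESeq2 23 were called higher, with upper-quartile factors 11 and with total reads 60. In the order of the roles below, those 60 were 12, 5, 7, 5, 13, 9 and 9, and no gene was called lower with total reads. Of the 80, 40 were highest among the VC libraries in VC.2, as were 4 of the 9 barrier lipid genes and 22.0% of all genes tested. These shares were not tested against each other.

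Among genes that make sphingoid bases and ceramides, 2 of 15 rose and 1 fell. Degs2, which hydroxylates the sphingoid base of ceramides, went from 129 ± 28.1 to 55.1 ± 12.7 normalized counts (SD, n = 4 each, log2 fold change -1.22, SE 0.27, limma adjusted p = 0.0217), with no overlap of the groups. It was called in 6 of 8 fits with a library left out, and with total reads its log2 fold change was -0.36 (limma adjusted p = 0.347). Sptlc3, a subunit of the enzyme that starts sphingoid base synthesis, had 59.2 ± 44.6 in VC and 111 ± 55.0 in AP and did not pass (1.13, limma adjusted p = 0.200) except with total reads (0.0158). Among elongation and desaturation genes, 1 of 12 rose and 1 fell, with a median of 0.04 that was -0.03 with upper-quartile factors and ran from -0.14 without VC.1 to 0.46 without VC.2. Elovl1, an elongase of saturated very long chains, went from 302 ± 95.4 to 663 ± 181 (1.16, SE 0.27, limma adjusted p = 0.0263), and Fads1, a desaturase, from 349.9 ± 61.4 to 227 ± 31.1 (-0.62, SE 0.18, limma adjusted p = 0.0498). Neither gene's groups overlapped, and when libraries were left out in turn Fads1 was called 1 time in 8 and Elovl1 6 times. On all libraries Elovl1 lost its call without the trend (limma adjusted p = 0.0733), and Fads1 lost it with a pseudocount of 0.5 (0.0508), without a filter (0.0528), with TMM factors (0.055), without the trend (0.0928) and with total reads, outside mitochondrial genes (0.0693) or of all genes (0.334, with the direction reversed at 0.25).

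Of 10 genes that activate or hydroxylate fatty acids, 1 rose and none fell. At an unadjusted limma p under 0.05, with edgeR and with DESeq2, 4, 1 and 2 were higher and 0 lower. Cyp4f39, whose enzyme hydroxylates the far end of the chain, had 149.8 ± 135 normalized counts in VC and 235 ± 18.0 in AP and did not pass (log2 fold change 0.995, SE 0.43, limma adjusted p = 0.141) except with total reads (0.00511) and without VC.2 (0.0095). Slc27a4, a fatty acid transporter and acyl-CoA synthetase, had 2112 ± 1545 and 1375 ± 272 (-0.40, SE 0.37, limma adjusted p = 0.492), and its log2 fold change was 0.03 without VC.2 and 0.47 with total reads. Of 8 genes of triglyceride synthesis and of lipases related to the Abhd5 partners, 2 rose. Lipk, a lipase of differentiating keratinocytes, went from 1.55 ± 1.23 to 22.3 ± 13.5 (3.18, SE 0.68, limma adjusted p = 0.0195), and Pnpla3 from 33.0 ± 5.36 to 107 ± 51.2 (1.57, SE 0.35, limma adjusted p = 0.0225). Lipk too passed the filter through the AP libraries alone, and its limma adjusted p was 0.0175 without any filter. Lipk and Pnpla3 were each called in 6 of 8 fits with a library left out. Pnpla2, the other lipase that ABHD5 activates, had 1549.7 ± 695 in VC and 1489 ± 750 in AP (-0.08, SE 0.35, limma adjusted p = 0.898), and its log2 fold change was 0.19 without VC.1 and 0.79 with total reads.

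In the turnover of glucosylceramide and sphingomyelin, 5 of 16 genes rose and 1 fell. Smpd3, a sphingomyelinase, went from 34.2 ± 20.49 to 120.1 ± 54.7 normalized counts (SD, n = 4 each, log2 fold change 1.82, SE 0.52, limma adjusted p = 0.0462), although its groups overlapped. Asah2, a ceramidase, went from 51.5 ± 15.8 to 131 ± 34.6 (1.34, SE 0.30, limma adjusted p = 0.0236), and Smpd2 fell from 317 ± 80.5 to 185 ± 42.2 (-0.77, SE 0.22, limma adjusted p = 0.0479). With a library left out, Asah2 was called in 5 of 8 fits, Smpd3 in 2 and Smpd2 in 1. On all libraries Smpd3 lost its call without a filter (limma adjusted p = 0.0529), with upper-quartile factors (0.0511) and without the trend (0.0901). Smpd2 lost its call with TMM factors (limma adjusted p = 0.0504), without a filter (0.0511), without the trend (0.0935) and with total reads, outside mitochondrial genes (0.0544) or of all genes (0.727, with the direction reversed). Without VC.1 the log2 fold change of Smpd2 was -0.61 (limma adjusted p = 0.0987). Acer1, the ceramidase of the epidermis, had 309 ± 259 and 391 ± 142 and did not pass (0.60, SE 0.46, limma adjusted p = 0.405) except with total reads (0.0293).

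Of 10 genes listed for linoleate oxidation and epoxide hydrolysis beside Alox12b, Aloxe3 and Sdr9c7, 4 rose and none fell. Of them 1, Alox15, was lower at an unadjusted p under 0.05 and with DESeq2 and was not among the genes tested by edgeR (chosen after its values were seen). Dhrs9, a dehydrogenase, went from 2.77 ± 3.20 to 20.9 ± 4.35 normalized counts (SD, n = 4 each, log2 fold change 3.07, SE 0.77, limma adjusted p = 0.0323). Rdh16 had no read in any VC library and 5.08, 7.01, 4.98 and 7.15 normalized counts over AP.1–AP.4, on average at least 5.03-fold higher than the floor of 3 reads over the VC group (limma adjusted p = 0.0344). Its AP values rest on 7, 13, 10 and 10 reads, and it too was not among the genes tested by edgeR. It passed the filter on low values through the AP libraries alone, and without any filter its limma adjusted p was 0.0108. With Rdh16 at that bound the median of this list stayed at 1.45. The lipoxygenase genes Alox5 and Alox12 went from 28.2 ± 10.98 to 91.7 ± 26.1 (1.70, SE 0.37, limma adjusted p = 0.0205) and from 16.6 ± 7.70 to 52.7 ± 26.4 (1.59, SE 0.46, limma adjusted p = 0.0496). With a library left out, Alox5 was called in 6 of 8 fits, Rdh16 in 4, Dhrs9 in 3 and Alox12 in 2. On all libraries Dhrs9 lost its call without the trend (limma adjusted p = 0.0509), and Alox12 lost its call in 5 fits, among them that without a filter (limma adjusted p = 0.0636) and that with upper-quartile factors (0.053). Ephx3, an epoxide hydrolase of the same route, had 72.3 ± 55.7 and 172 ± 60.0 and did not pass (1.42, SE 0.43, limma adjusted p = 0.0551), but it was called with DESeq2 (adjusted p = 0.0428) and by limma with total reads (0.00252), without VC.2 (0.0141) and without AP.1 (0.0484).

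Of 9 other genes with a lipid role, most of them genes of inherited ichthyosis, limma called none in either direction. With total reads it called 9 higher (median 1.09, against 0.22). At an unadjusted limma p under 0.05, with edgeR and with DESeq2 1 was higher and 0 lower. Nipal4 had 38.8 ± 17.7 normalized counts in VC and 123 ± 70.2 in AP (SD, n = 4 each, log2 fold change 1.595, SE 0.50, limma adjusted p = 0.0599), with all AP libraries above all VC libraries. It was called with edgeR (adjusted p = 0.048), with DESeq2 (0.00928), and by limma with total reads (0.00322) and without AP.1 (0.0423).

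**Figure D3:**
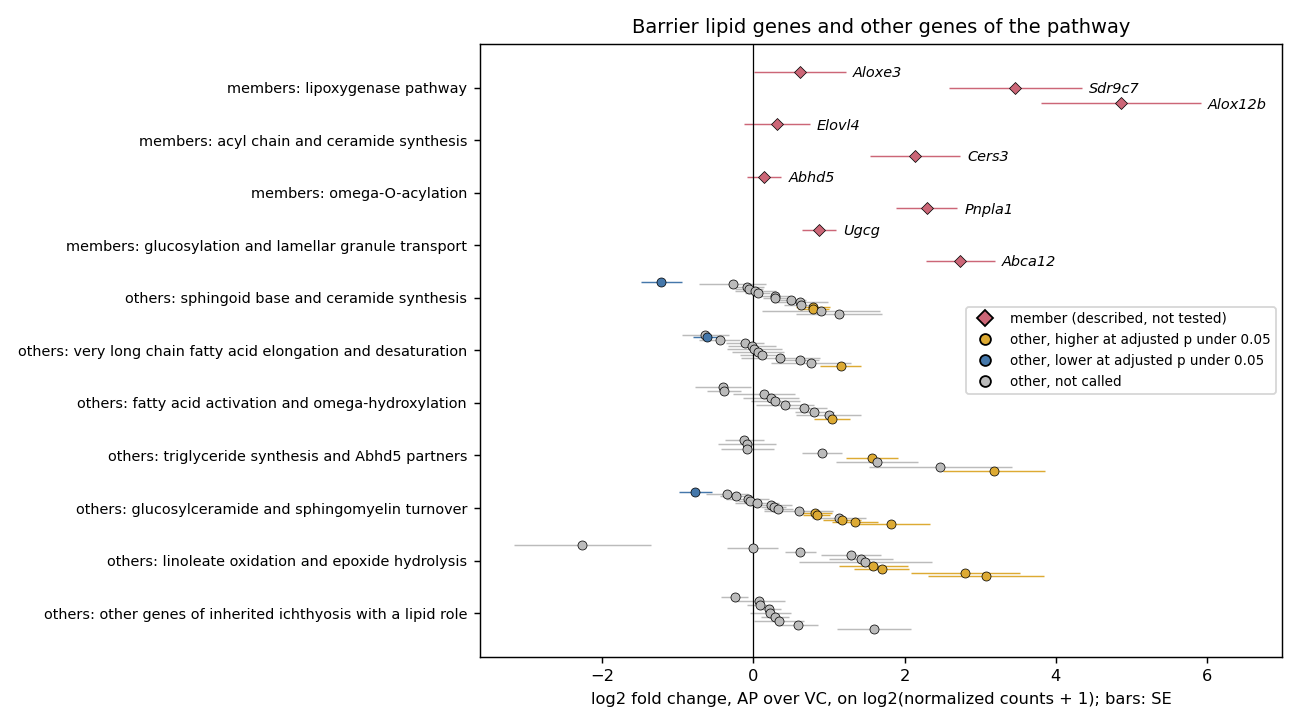
Log2 fold changes of AP over VC with SE for the 9 barrier lipid genes (diamonds, described without a test) and for the 80 other pathway genes tested (circles), grouped by role. Of the 80 others, 15 are higher and 3 lower at a limma adjusted p under 0.05, and the 9 genes run from 0.14 (Abhd5) to 4.86 (Alox12b).

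Likeness of 2 genes was measured as the root mean square difference, over the 8 libraries, of their log2(normalized counts + 1) after each gene's own mean was subtracted, so that 0 is an identical pattern. Of 11249 genes with a mean of at least 50 normalized counts, the 5 most like Alox12b were Selp (1.26), Skint9 (1.34), Nccrp1 (1.35), Il1f9 (1.47) and Hal (1.54), where the median over all 11249 was 2.97. Skint9, for example, had 0, 11.8, 17.8 and 9.38 normalized counts over VC.1–VC.4 and 64.6, 53.9, 213 and 254 over AP.1–AP.4. Selp differed from Alox12b in where its AP values were high, with 374 in AP.2 and 82.2 in AP.3. For Elovl4, a gene added to this search after its values had been seen, the 4 nearest were Gm14493 (0.175), Psapl1 (0.177), Acsl5 (0.178) and Emb (0.179), against a median of 0.800. Psapl1 had 1042, 4510.1, 1196 and 1691 over VC.1–VC.4 and 1930.0, 1923, 2098 and 2234 over AP.1–AP.4, again with VC.2 the highest. Within the 9 genes, Pnpla1 and Abca12 were the closest pair, at 0.501, and Alox12b and Abhd5 the farthest, at 3.06, while Alox12b and its neighbour Aloxe3 were 2.37 apart.

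In mm10 Aloxe3 (ENSMUSG00000020892) and Alox12b (ENSMUSG00000032807) lie next to each other on the + strand of chromosome 11, at chr11:69125896-69149115 and chr11:69156989-69169792, with 7873 bases between them. Alox8 follows on the other strand, at chr11:69183932-69197843, and had 5.74 ± 5.88 normalized counts in VC and 12.5 ± 7.18 in AP (SD, n = 4 each, log2 fold change 1.48, limma adjusted p = 0.280). The other genes lie apart: Elovl4 (ENSMUSG00000032262) at chr9:83778692-83806277 on the - strand, Abhd5 (ENSMUSG00000032540) at chr9:122351608-122381524, Cers3 (ENSMUSG00000030510) at chr7:66743504-66823691, Pnpla1 (ENSMUSG00000043286) at chr17:28858411-28890309, Ugcg (ENSMUSG00000028381) at chr4:59189257-59222833, Sdr9c7 (ENSMUSG00000040127) at chr10:127898518-127911761 and Abca12 (ENSMUSG00000050296) at chr1:71242276-71414910 on the - strand.

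Promoters of 300 bases, 250 before and 50 after the start, were taken from a set of RefSeq promoters (GRCm38.p6). The set used held 8 of the 9 genes, without an entry for Aloxe3. Over these windows Ugcg, Elovl4 and Abhd5 held 53, 35 and 32 CG dinucleotides, more than 99.5%, 93.0% and 90.5% of the 32851 promoters, whose median is 7. Alox12b held 15, more than 65.4% of the promoters, Cers3 7, Abca12 and Pnpla1 6 each and Sdr9c7 2. The log2 fold changes of the first 3, also the most abundant of the 9 genes on the length-scaled level, were 0.87, 0.31 and 0.14. Those of the other 5 were 2.14 or more, an order seen in 8 genes only and not tested. The stretches before the start of Elovl4 (chr9:83806306-83806555, - strand) and of Abca12 (chr1:71414911-71415160, - strand) show the difference, with each CG in capitals, 5′ to 3′.
Elovl4: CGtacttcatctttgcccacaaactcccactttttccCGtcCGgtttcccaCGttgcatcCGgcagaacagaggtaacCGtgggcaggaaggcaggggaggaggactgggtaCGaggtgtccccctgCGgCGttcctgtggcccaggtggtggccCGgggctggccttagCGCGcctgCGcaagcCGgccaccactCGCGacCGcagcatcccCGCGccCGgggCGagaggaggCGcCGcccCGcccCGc
Abca12: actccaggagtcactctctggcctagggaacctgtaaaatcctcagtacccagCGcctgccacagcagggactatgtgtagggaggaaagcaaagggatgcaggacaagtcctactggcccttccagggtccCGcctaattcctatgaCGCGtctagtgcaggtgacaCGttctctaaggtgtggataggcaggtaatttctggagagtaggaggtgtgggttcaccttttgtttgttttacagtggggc

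Motifs were searched on both strands of the same windows. The AP-1 motif TGANTCA was in 0 of the 8 promoters and in 7.81% of all 32851, and the grainyhead-like motif AACCNGTT was in 0 of 8 and 2.09%. The Kruppel-like factor motif CCNCACCC was in 3 of 8 (Alox12b, Pnpla1 and Ugcg) and 16.6% of all, the C/EBP motif TTGCNNAA in 1 (Pnpla1) and 10.8%, and the TATA box TATAAA in 1 (Sdr9c7) and 13.6%. A match is a description of the letters and not of binding. For the genes that begin and end the linoleate oxidation and for the transacylase before it, the stretches ahead of the annotated start are given with the match in capitals, 5′ to 3′. They are chr11:69156822-69156988 (+ strand) for Alox12b and chr10:127898285-127898517 (+ strand) for Sdr9c7. That of Pnpla1 is chr17:28858161-28858410 (+ strand), inside the span of Pnpla1os (chr17:28852055-28859508) on the other strand.
Alox12b: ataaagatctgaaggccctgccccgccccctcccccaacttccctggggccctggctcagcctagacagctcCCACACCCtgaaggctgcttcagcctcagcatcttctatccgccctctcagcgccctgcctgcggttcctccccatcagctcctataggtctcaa
Sdr9c7: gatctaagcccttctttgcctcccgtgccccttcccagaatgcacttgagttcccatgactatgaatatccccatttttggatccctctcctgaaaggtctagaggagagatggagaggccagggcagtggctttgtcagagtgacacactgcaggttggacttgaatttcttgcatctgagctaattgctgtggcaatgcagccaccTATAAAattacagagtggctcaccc
Pnpla1: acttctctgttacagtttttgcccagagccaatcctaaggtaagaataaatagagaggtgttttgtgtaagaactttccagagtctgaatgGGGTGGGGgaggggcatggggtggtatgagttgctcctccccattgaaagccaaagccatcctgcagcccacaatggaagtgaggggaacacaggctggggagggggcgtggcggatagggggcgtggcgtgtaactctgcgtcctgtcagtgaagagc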

How the data were processed

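RNA from the dermis and hair follicles of 4 AP and 4 VC mice was sequenced, and the deposited table holds a signal per gene and library: normalized counts, in which the authors divided reads per gene by 1 size factor per library. All 150160 values were whole reads within 0.1 read once that factor was removed. The authors aligned reads to mm10 with STAR and used DESeq2; the counting tool is given as featureCounts in the methods and HTSeq in the labels. Columns of the deposited AP against VC comparison (mean level, log2 fold change with its error, statistic, p and adjusted p) were not used.

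The main test was limma 3.58.1 (R 4.3.3) with a trend on log2(value + 1), for genes at 3 or more normalized counts in 4 or more of the 8 libraries, with Benjamini-Hochberg adjustment over all 15964 genes tested and a threshold of 0.05. Fits were run first on simulated counts, with the same dispersion for every gene and changes in abundant genes only. That run did not cover low genes or the spread between these libraries. Alternatives were pseudocounts of 0.5 and 5, other or no filters, TMM, upper-quartile and total-read scaling, edgeR 4.0.16 and DESeq2 1.42.0 on the recovered reads, no trend, an unadjusted p under 0.01 with a fold over 1.5, and leaving out each library. Lengths came from GENCODE M21 and promoters from RefSeq.

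The genes followed and the lists were chosen with earlier results of these data known. Named were the 9 genes, pathway genes given by name, the called pathway genes with the largest changes (up to 8 higher and 5 lower), the most abundant gene of each marker list with Krt1, Krt10, Lor, Ivl and Flg, and the 5 genes most like Alox12b. Genes like Elovl4, promoter base composition, Alox15, Tnnc2 and the genes beside Alox12b or antisense to Pnpla1 and Abhd5 were added after values were seen. The bulk values do not separate cell numbers from RNA per cell, and 4 libraries per group with few reads in VC limit low genes.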

Additional observations from a re-analysis of the deposited data

Results flagged for a closer look

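In 2 of 74 groups of libraries, 1 library stood far from the other 3, where chance alone gives about 1 in 20. Smpd2 in VC.1 had a level of 8.77 on the log2 scale, against 8.18 in the nearest and 8.07 in the farthest VC library, a gap of 0.853 of the whole range. The mean level of the inner root sheath markers in VC.4 was 6.85, against 8.55 in the nearest and 8.71 in the farthest VC library, a gap of 0.914 of the range. The cause of either was not tested.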

How the results depend on the processing

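The number of barrier lipid genes called higher (6) was 8 with total reads, which added Elovl4 (1.18) and Abhd5 (1.01), 2 with limma without the trend and 2 to 6 when each library was left out, with Elovl4 called also without VC.2. Nothing is read from these calls, since the same comparison chose the genes. Their median log2 fold change of 2.14 was 2.98 with total reads and 1.73 to 2.46 with a library left out, and all AP lay above all VC libraries in 4 to 7 of them over scalings and libraries left out.

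Of all genes, those called higher (1011) were 8662 with total reads, 1667 with DESeq2, 376 without the trend and 209 to 1082 with a library left out. Those called lower (639) were 70, 1394, 216 and 94 to 817 in the same order. Pathway genes called higher (15) were 60, 23, 6 and 0 to 17. Pathway genes called lower (3) were 1 without a filter, 1 with TMM, 1 with total reads outside mitochondrial genes, 0 with total reads, 1 without the trend and 0 to 3 with a library left out. Fewest genes were called without AP.3 (209 and 94) and without AP.4 (254 and 139). Each fit with a library left out had a smaller group, and that without AP.1 called 1082 higher and 817 lower. With total reads outside the 13 mitochondrially encoded genes, 957 genes were called higher and 540 lower, with a median of all genes of 0.10 (0.90 with all total reads). The cause of these shifts was not tested.

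Directions reversed with total reads for Slc27a4 (0.47), Pnpla2 (0.79), Smpd2 (0.10) and Fads1 (0.25), and for Elovl4 with edgeR (-0.071) and DESeq2 (-0.046). With a library left out, the log2 fold change ran from -0.018 to 0.837 for Elovl4, -0.061 to 0.336 for Abhd5, -0.38 to 0.19 for Pnpla2 and -0.684 to 0.031 for Slc27a4; the cause was not tested. No paired analysis was possible because the column numbers do not tie a VC mouse to an AP mouse. Depth limits low genes in VC, where 1 read is worth 1.37 to 1.88 normalized counts.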

Other observations

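Around Alox12b and Aloxe3, Per1 had 408 ± 194 normalized counts in VC and 543 ± 214 in AP, and Vamp2 had 327 ± 56.6 and 253 ± 57.1 (SD, n = 4 each), with overlapping groups for both. Hes7 had 50.9 normalized counts in VC.1 and 0 in the other 3 VC libraries.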
